A study of Homo sapiens with 6 samples.

Results

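The genes of calcium/calmodulin-dependent protein kinase II (CaMKII) and of protein phosphatase 1 (PP1) were described in hiPSC-CMs exposed to alcohol. The set holds 9 of the 21134 genes that the series lists. They are the 4 CaMKII isoform genes CAMK2A, CAMK2B, CAMK2D and CAMK2G, the 3 PP1 catalytic subunit genes PPP1CA, PPP1CB and PPP1CC, the PP1 inhibitor gene PPP1R1A, and PRKACA, the catalytic subunit of protein kinase A (PKA). Each was found by its symbol. PPP1R1A was chosen by its higher measured level with alcohol in these libraries, so its values are given as a description with no test. The other 8 genes were taken by family, but with earlier results of these data known. Their shares set against all genes are therefore a description too. The series has 6 RNA-seq libraries in 3 groups of 2. Control cells were left untreated, alcohol cells received 100 mM alcohol during 24 h, and co-treated cells received the same alcohol dose together with 1 μM losartan over 24 h. Losartan blocks the type 1 receptor of angiotensin II. All 6 libraries came from cells differentiated from H9, known as a human embryonic line although the labels call the cells hiPSC-CMs, and no library of losartan alone was analysed here. Nothing in the labels says that the replicates were separate cultures, so the tests measure only the spread between these libraries, which may be technical.

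CaMKII is a kinase switched on by calcium-bound calmodulin. Once active it can phosphorylate itself and stay on after calcium falls, and in the heart it acts on the ryanodine receptor, phospholamban, ion channels and class II histone deacetylases. PKA, the kinase of beta-adrenergic signaling, shares several of these targets. PP1 removes phosphate from many of the same proteins, and its catalytic subunits depend on partner proteins for place and activity. PPP1R1A encodes inhibitor-1, which blocks PP1 after PKA has phosphorylated it, so that the kinase arm can hold back the phosphatase arm.

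The expected counts, which are estimates of the reads per gene, summed to between 4898287 and 5051448 per library. The FPKM values of the authors divide these counts by gene length and library depth, so that genes can be compared by level. Cardiomyocyte markers were abundant, with 12 of 12 listed and a summed level of 19840 to 27036 FPKM. The lowest sum belonged to alcohol replicate 2, against 22668 FPKM or more in the other libraries, but MYL7 alone set this order: over the other 11 markers control replicate 2 was lowest, at 10227 FPKM, followed by alcohol replicate 2 at 10519 FPKM. In addition, the 6 smooth muscle markers were lowest in alcohol replicate 2, at 798 FPKM against 1069 to 1813 FPKM. The log2 fold changes between alcohol and control are therefore also given without that library. Of all 14926 genes tested, edgeR's quasi-likelihood test called 0.0670% between alcohol and control, 0.0134% between co-treated and alcohol, and 0.362% between co-treated and control, at an adjusted p under 0.05. In bulk RNA, fewer cells of a type and less RNA per cell cannot be told apart.

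CAMK2D, the main isoform of the heart, was the most abundant CaMKII transcript in each of the 6 libraries. Its level was 85.7 and 77.1 FPKM in control, 80.2 and 74.5 FPKM in alcohol, and 73.6 and 76.0 FPKM in co-treated cells. The ranges of control and alcohol overlapped, while both co-treated libraries lay just below the lower control library. The log2 fold change between alcohol and control was −0.13 (95% interval −0.39 to 0.12, adjusted p = 0.749 from edgeR), and −0.07 without alcohol replicate 2. The mean transcript length that the authors give for CAMK2D, an average weighted by the isoforms in use, was 4543 and 4733 bases in control, 4486 and 4664 bases in alcohol, and 4454 and 4547 bases in co-treated cells. Here the replicates of a group lay farther apart than the group means of control and alcohol, and the FPKM carries this length.

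CAMK2A, which is known above all as the abundant CaMKII of the brain, had 12.3 and 13.4 FPKM in control, 17.4 and 23.7 FPKM in alcohol, and 19.8 and 17.5 FPKM in co-treated cells. Each of the 4 alcohol-exposed libraries lay above both controls. The log2 fold change between alcohol and control was 0.63 (standard error 0.14, 95% interval 0.32 to 0.94), with an unadjusted p of 0.00068 and an adjusted p of 0.121 from edgeR, which did not pass the threshold. The size rested partly on single libraries. Leaving out alcohol replicate 2 gave 0.43, and leaving out alcohol replicate 1 gave 0.82, the lowest and highest of 14 alternatives. Both fits left 1 alcohol library, so no p is given for them. Where every group fitted kept both libraries, the adjusted p was 0.0681 (DESeq2) to 0.286 (limma on log2(FPKM + 0.1)).

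CAMK2B, the isoform of brain and skeletal muscle that can bind actin, had 7.28 and 6.55 FPKM in control, 11.4 and 9.60 FPKM in alcohol, and 9.64 and 9.43 FPKM in co-treated cells. Again the 4 alcohol-exposed libraries lay above both controls. The log2 fold change between alcohol and control was 0.57 (standard error 0.16, 95% interval 0.22 to 0.92, adjusted p = 0.191 from edgeR), and 0.73 without alcohol replicate 2. Without alcohol replicate 1 the log2 fold change was 0.415, the lowest of the 14 alternatives. Where every group fitted kept both libraries, the adjusted p was 0.122 (edgeR with the replicate number as a block) to 0.362 (DESeq2). The counts behind CAMK2B were 141 to 245 per library, so counting alone gives the lowest library an error of 8.42%. CAMK2G, a widely expressed isoform, had 8.65 and 8.48 FPKM in control, 10.5 and 10.1 FPKM in alcohol, and 10.2 and 9.20 FPKM in co-treated cells. Its groups of control and alcohol did not overlap, but the log2 fold change of 0.22 had a 95% interval of −0.10 to 0.55 (adjusted p = 0.642 from edgeR). Without alcohol replicate 2 it was 0.28.

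**Figure D1:**
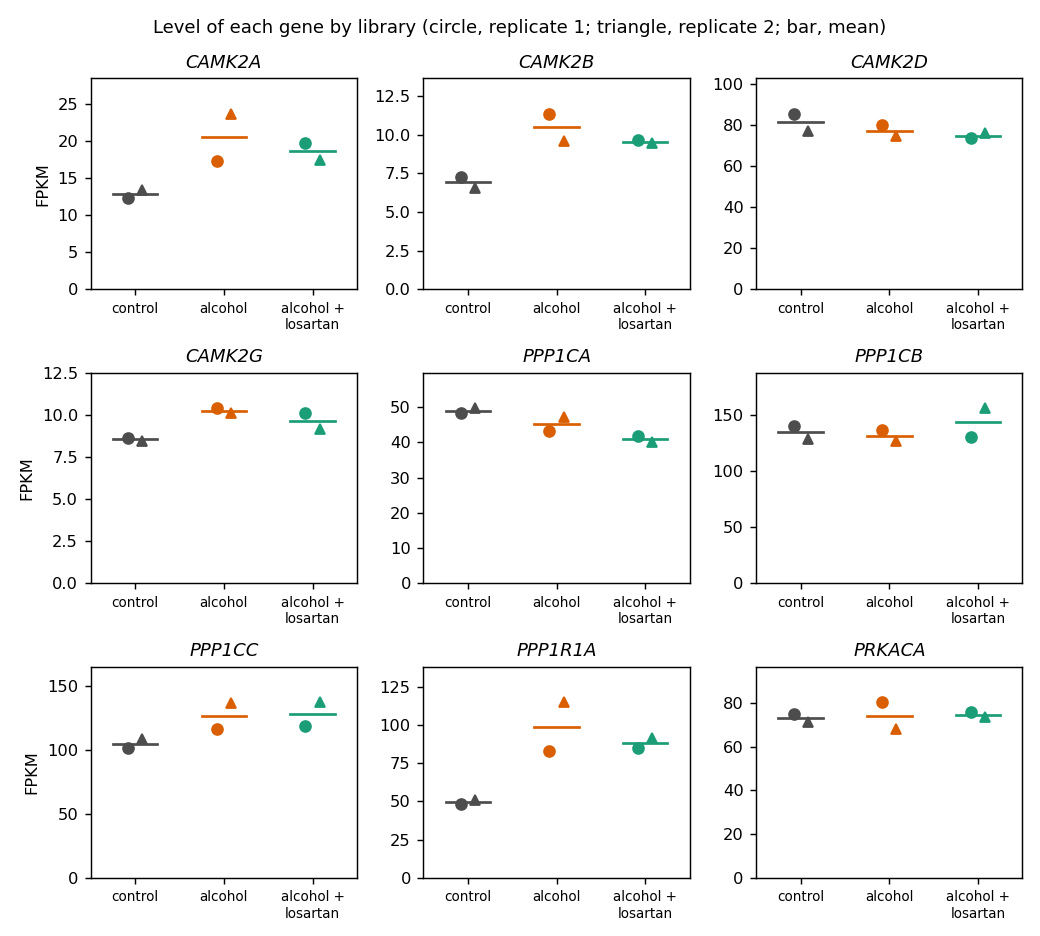
The level of each of the 9 genes in FPKM (vertical axes, each from 0) is plotted for the 6 libraries by group, with circles for replicate 1, triangles for replicate 2 and bars for the mean of the 2. Between alcohol and control, CAMK2A, CAMK2B, CAMK2G, PPP1CC and PPP1R1A lie higher without overlap, as do 24.7% of all genes tested. PPP1CA lies lower, as do 17.7% of all genes, while CAMK2D, PPP1CB and PRKACA overlap. PPP1R1A was chosen by its higher level with alcohol.

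Alcohol replicate 2, the library with the lowest smooth muscle marker level, had the highest CAMK2A but not the highest CAMK2B. Since CAMK2A and CAMK2B are also genes of neurons, 8 neural markers were summed: the total was 14.9 and 15.2 FPKM in control, 19.0 and 18.5 FPKM in alcohol, and 16.8 and 16.4 FPKM in co-treated cells, so each library with alcohol lay above both controls, as for these isoforms. Of the 8, ELAVL4, SYP and RBFOX3 were at or under 0.40 FPKM in all 6 libraries. MAP2 had 2.14 and 1.19 FPKM in control against 1.36 and 0.45 FPKM in alcohol, TUBB3 had 5.81 and 6.80 FPKM against 7.30 and 5.88 FPKM, and STMN2 had 0.89 and 1.16 FPKM against 1.60 and 1.10 FPKM. SNAP25 and SYN1 made most of the difference, with 3.45 and 3.46 FPKM of SNAP25 in control against 4.70 and 6.42 FPKM in alcohol. Among skeletal muscle markers, 5 of 8 were listed, and CKM, which the heart also expresses, made up most of their sum of 281 to 342 FPKM. The other 4 summed to 4.93 and 4.84 FPKM in control and to 6.76 to 9.87 FPKM in the 4 libraries with alcohol. The sums of the endothelial markers (7.16 and 6.27 FPKM in control, 7.87 to 11.1 FPKM with alcohol) and of the endoderm and liver markers (44.2 and 42.4 FPKM in control, 54.1 to 58.9 FPKM with alcohol) also lay above both controls in each library with alcohol. KDR set this order for the endothelial list: its other 5 markers summed to 3.16 and 2.57 FPKM in control and 2.35 to 3.37 FPKM with alcohol. Without AFP the endoderm and liver sum stayed above, at 23.9 and 21.6 FPKM in control and 25.7 to 36.5 FPKM with alcohol. The fibroblast and pluripotency sums overlapped between the controls and the libraries with alcohol. The part of other cells in the CAMK2A and CAMK2B levels was not tested.

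The make-up of CaMKII transcripts was compared as each isoform's share of the summed FPKM, a value within 1 library. CAMK2D made up 75.2% and 73.1% of control, 67.2% and 63.2% of alcohol and 65.0% and 67.8% of co-treated transcripts. The group means were 74.1% ± 1.49 (control), 65.2% ± 2.82 (alcohol) and 66.4% ± 1.96 (co-treated; SD, n = 2 each), so the difference of −8.95 percentage points between alcohol and control was larger than the spread within either group. With 2 libraries against 2, no exact permutation p can go below 0.333, and none is given. The difference was −6.96 points without alcohol replicate 2. CAMK2A took up 10.8% and 12.7% in control and 14.5% and 20.1% in alcohol, and CAMK2B 6.39% and 6.21% in control and 9.52% and 8.14% in alcohol. The summed CaMKII level itself was 114 and 105 FPKM in control, 119 and 118 FPKM in alcohol, and 113 and 112 FPKM in co-treated cells. Both alcohol sums lay above both control sums, and the co-treated sums lay inside the control range.

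**Figure D2:**
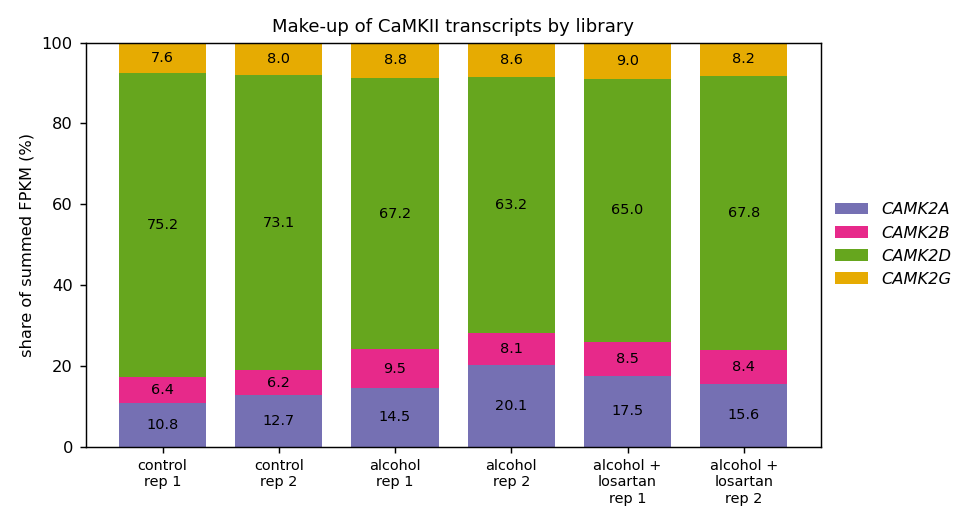
Stacked bars give the share of each CaMKII isoform gene in the summed CaMKII FPKM (percent, vertical axis) for each of the 6 libraries. CAMK2D holds 73.1% or more in the control libraries and 67.8% or less in the 4 libraries with alcohol.

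The sequences just upstream of the start sites are shown for the isoforms with the highest fold changes, CAMK2A and CAMK2B, and for CAMK2D, whose share was lower. They are read from RefSeq promoters on GRCh38.p14, each 150 bases long, on the minus strand and printed 5′ to 3′ up to the base before the start site. The start sites used for CAMK2A and CAMK2B lie inside the gene. Their RefSeq spans reach to 150290130 and 44326013, so their stretches lie within the gene span. The stretch of CAMK2D lies outside its gene, which reaches to 113761738, so the stretches are not alike in position. Capitals mark TGACG, the core of the cAMP response element, and GGGCGG, the GC box, on either strand.
CAMK2A, chr5:150289774-150289923: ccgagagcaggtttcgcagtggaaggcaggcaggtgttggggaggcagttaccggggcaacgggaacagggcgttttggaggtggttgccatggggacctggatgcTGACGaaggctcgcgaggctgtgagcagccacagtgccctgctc
CAMK2B, chr7:44325595-44325744: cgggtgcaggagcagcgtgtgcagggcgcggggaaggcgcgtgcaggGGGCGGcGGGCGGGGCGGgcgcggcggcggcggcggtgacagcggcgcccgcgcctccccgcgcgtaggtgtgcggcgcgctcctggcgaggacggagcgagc
CAMK2D, chr4:113761739-113761888: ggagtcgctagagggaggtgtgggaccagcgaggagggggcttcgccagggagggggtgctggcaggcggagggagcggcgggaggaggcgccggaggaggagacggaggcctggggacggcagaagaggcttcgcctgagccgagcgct

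The stretch of CAMK2A held 1 TGACG and no GC box, that of CAMK2B held 3 GC boxes, of which 2 overlap, and that of CAMK2D held neither. The 3 stretches had a GC content of 64.0%, 83.3% and 73.3%. Over 250 bases upstream, TGACG was found in 21.2% and GGGCGG in 42.6% of the 35116 promoters of the table, so neither match is rare. The whole cAMP response element, the TATA box, the E-box, the MEF2 motif and the CArG box had no match in the 250 bases upstream of the 7 members with a promoter in the table. PPP1R1A and PPP1CA were the others. Of the other members, PRKACA held 1 TGACG, 3 GC boxes and 4 CCAAT boxes (CCAAT) at 1 of its start sites and none at the other, PPP1CB held 1 TGACG at 1 of its start sites, PPP1CC held 5 GC boxes and 1 CCAAT box, and CAMK2G held 9 GC boxes. The CCAAT box was found in 32.0% of all promoters. These are matches of letters on both strands, not measured binding.

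PP1 catalytic transcripts were more abundant than CaMKII transcripts, with a summed level of 287 to 334 FPKM. PPP1CB, whose product forms myosin phosphatase with PPP1R12 subunits, was the highest of the 3 in control at 140 and 129 FPKM. It had 136 and 127 FPKM in alcohol and 130 and 156 FPKM in co-treated cells, and the 3 groups overlapped. The log2 fold change between alcohol and control was −0.07 (95% interval −0.37 to 0.22, adjusted p = 0.896 from edgeR), and 0.02 without alcohol replicate 2.

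PPP1CC, a subunit found in the nucleus and at kinetochores among other places, had 101 and 108 FPKM in control, 116 and 136 FPKM in alcohol, and 118 and 137 FPKM in co-treated cells. Each alcohol-exposed library lay above both controls. The log2 fold change between alcohol and control was 0.26 (95% interval −0.01 to 0.54, adjusted p = 0.479 from edgeR), and 0.18 without alcohol replicate 2. PPP1CA, another catalytic subunit, went the other way in level: 48.2 and 49.8 FPKM in control, 43.3 and 47.2 FPKM in alcohol, and 41.8 and 40.2 FPKM in co-treated cells. The co-treated libraries were the lowest, and all 3 groups were apart. Its log2 fold change was −0.15 for alcohol against control (adjusted p = 0.711 from edgeR), or −0.17 without alcohol replicate 2, and −0.30 for co-treated against control (95% interval −0.57 to −0.04, unadjusted p = 0.0286, adjusted p = 0.325 from edgeR). In GENCODE 29, 26.9% of the exon bases of PPP1CA are also exons of CARNS1, RAD9A or TBC1D10C on the opposite strand, and the sources used here do not state whether the counting used strand, so reads of these genes cannot be told apart there.

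**Figure D3:**
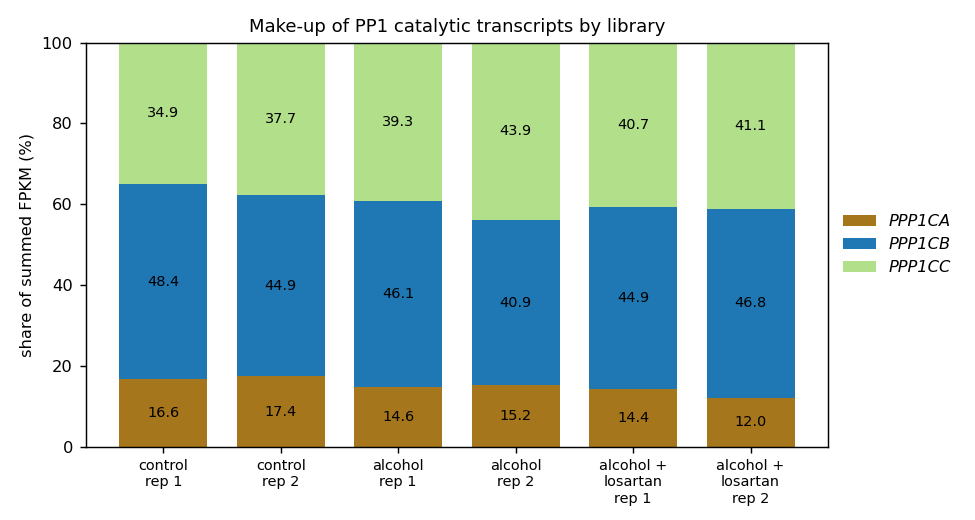
Stacked bars give the share of each PP1 catalytic subunit gene in the summed PP1 catalytic FPKM (percent, vertical axis) for each of the 6 libraries. PPP1CC lies at 34.9% and 37.7% in control and at 39.3% or more with alcohol, and PPP1CA lies at 16.6% and 17.4% in control and at 15.2% or less with alcohol.

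In shares, PPP1CB made up 48.4% and 44.9% of PP1 catalytic FPKM in control, 46.1% and 40.9% in alcohol, and 44.9% and 46.8% in co-treated cells. These groups overlapped, and the mean difference of −3.18 percentage points between alcohol and control was smaller than the SD of 3.69 in alcohol. PPP1CC rather than PPP1CB was the highest of the 3 in alcohol replicate 2, at 43.9% of the sum. PPP1CA held 16.6% and 17.4% of control, 14.6% and 15.2% of alcohol and 14.4% and 12.05% of co-treated transcripts, with no overlap between any of the groups.

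PPP1R1A (NCBI Gene 5502) lies on chromosome 12 at chr12:54579246-54588659 in the RefSeq annotation of GRCh38.p14. It had 48.2 and 51.0 FPKM in control, 82.8 and 115 FPKM in alcohol, and 84.7 and 91.7 FPKM in co-treated cells. Its means were 49.6 ± 2.01, 98.9 ± 22.8 and 88.2 ± 4.95 FPKM (SD, n = 2 each). The 4 libraries with alcohol lay above both controls, and the co-treated libraries lay within the range of the alcohol libraries. The fitted log2 fold change was 0.95 for alcohol against control. Leaving out alcohol replicate 2 gave 0.74, and leaving out alcohol replicate 1 gave 1.15. For co-treated against control it was 0.79, and the controls are the same libraries that chose the gene. For co-treated against alcohol it was −0.17, and 0.04 without alcohol replicate 2. The counts behind these levels were 448 and 473 for control, 770 and 1039 for alcohol, and 764 and 849 for co-treated cells, far over the floor of 3 counts. In GENCODE 29, 11.1% of its exon bases overlap exons of PDE1B on the opposite strand.

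Set against its target, PPP1R1A stood at 16.6 and 17.8 FPKM per 100 FPKM of summed PP1 catalytic transcripts in control, at 28.0 and 37.1 in alcohol, and at 29.2 and 27.5 in co-treated cells. The ratio differed by 15.3 between the means of alcohol and control, and by 10.8 without alcohol replicate 2. By rank among the genes above 0, PPP1R1A lay at the 93.0 and 93.3 percentile of FPKM in control and at the 96.1 and 97.4 percentile in alcohol. In level it stood beside PPP1CA in control, and at 1.91 to 2.44 times PPP1CA in each of the 4 libraries with alcohol.

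PRKACA, the kinase subunit that activates inhibitor-1, had 74.7 and 71.1 FPKM in control, 80.4 and 68.0 FPKM in alcohol, and 75.9 and 73.3 FPKM in co-treated cells. The control range lay inside the alcohol range, and so did the co-treated range. Its log2 fold change was −0.01 between alcohol and control, with a 95% interval of −0.29 to 0.27 (adjusted p = 0.987 from edgeR). Without alcohol replicate 2 it was 0.14, and the direction turned in 5 of 14 alternatives.

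Between alcohol and control, 0 of the 8 tested members were called by edgeR at an adjusted p under 0.05, where 0.0670% of all genes were called. At an unadjusted p under 0.05 there were 2 (CAMK2A and CAMK2B), or 25.0% of 8, against 11.0% of all genes. The groups did not overlap in FPKM for 5 of the 8, or 62.5%, against 42.4% of all genes. Of these 5, CAMK2A, CAMK2B, CAMK2G and PPP1CC were higher in alcohol and PPP1CA was lower. The median log2 fold change of the 8 was 0.11, and it was −0.0033 over all genes tested. Since the members were chosen with earlier results of these data known, these shares are a description. DESeq2 called 72 of all genes and 0 of the 8. On log2(FPKM + 1), limma called 0 of all genes (1545 at an unadjusted p under 0.05), so 0 of the 8 carries no information there.

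**Figure D4:**
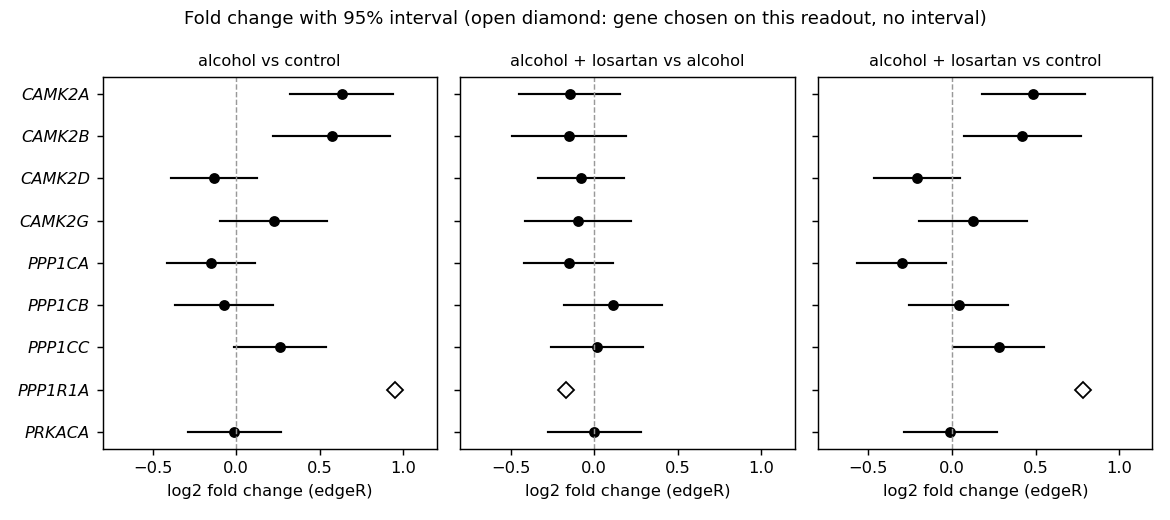
Log2 fold changes from edgeR (horizontal axes) with 95% intervals are drawn for the 8 tested genes in 3 comparisons, and PPP1R1A is drawn as an open diamond without an interval. The intervals of CAMK2A and CAMK2B lie above 0 against control in both comparisons. Between co-treated and control the interval of PPP1CC also lies above 0, and that of PPP1CA lies below 0. All 8 intervals include 0 between co-treated and alcohol. The intervals are for single genes and are not adjusted for the number of genes tested.

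The question of the co-treatment is whether losartan alters the response to alcohol. Between co-treated and alcohol libraries, 0 of the 8 members were called, against 0.0134% of all genes, and 0 had an unadjusted p under 0.05, against 5.55% of all genes. PPP1CA was the 1 member whose groups did not overlap, or 12.5%, against 32.3% of all genes. The log2 fold changes lay between −0.15 and 0.11, and each 95% interval included 0. For CAMK2A the value was −0.15 (95% interval −0.45 to 0.16, adjusted p = 0.948 from edgeR) and for CAMK2B −0.15 (95% interval −0.49 to 0.19, adjusted p = 0.952 from edgeR), so a return of either gene to its control level was not detected. The CAMK2A value turned to 0.05 without alcohol replicate 2, and the CAMK2B value to 0.0072 without alcohol replicate 1. The CAMK2D share differed by 1.25 percentage points between these groups, less than the SD of either.

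Between co-treated and control libraries, which share their controls with the first comparison, 0 of the 8 members were called, against 0.362% of all genes. At an unadjusted p under 0.05 there were 4 (CAMK2A, CAMK2B, PPP1CA and PPP1CC), against 12.6% of all genes. The groups did not overlap for 6 of the 8, or 75.0%, against 43.4% of all genes. CAMK2A had a log2 fold change of 0.49 (95% interval 0.18 to 0.80, adjusted p = 0.169 from edgeR). CAMK2B had 0.42 (95% interval 0.07 to 0.77, adjusted p = 0.299 from edgeR), and PPP1CC had 0.28 (95% interval 0.0040 to 0.55, adjusted p = 0.388 from edgeR). Where every group fitted kept both libraries, the adjusted p of CAMK2A was 0.0991 (edgeR with only the groups compared) to 0.290 (limma on log2(FPKM + 0.1)). The CAMK2D share differed by −7.71 percentage points, more than the SD of 1.96 in co-treated and of 1.49 in control cells.

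The partners of these enzymes were taken from 6 lists of 91 genes, of which 88 are listed in the series and 80 were tested. Of the 80, edgeR called 0 in each of the 3 comparisons, where 0.362% of all genes or fewer were called. At an unadjusted p under 0.05 there were 7 between alcohol and control (8.75%, against 11.0% of all genes), 6 between co-treated and alcohol (7.5%, against 5.55%) and 8 between co-treated and control (10.0%, against 12.6%).

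Among CaM kinase partners, 9 of 14 listed genes were tested, and edgeR called 0 of them in each comparison, where 0.362% of all genes or fewer were called. CALM2, a calmodulin gene and the highest of the list in level, had 214 and 230 FPKM in control, 207 and 192 FPKM in alcohol, and 211 and 244 FPKM in co-treated cells. The CaMKII inhibitor genes CAMK2N1 and CAMK2N2 did not pass the expression filter, with at most 4 and 2 counts in any library.

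The PP1 inhibitors other than PPP1R1A had a median log2 fold change of −0.16 between alcohol and control over 9 genes tested, while the median of all genes was −0.0033. Of the 9, 0 had an unadjusted p under 0.05, against 11.0% of all genes. PPP1R14C, a PKC-dependent inhibitor and the highest of the list, had 115 and 106 FPKM in control, 119 and 96.3 FPKM in alcohol, and 107 and 97.6 FPKM in co-treated cells. PPP1R14B, of the same family, had 39.0 and 42.3 FPKM in control, 32.6 and 34.6 FPKM in alcohol, and 35.4 and 27.8 FPKM in co-treated cells (log2 fold change −0.42 between co-treated and control, adjusted p = 0.290 from edgeR). PPP1R14A, known from smooth muscle, had a log2 fold change of −0.72 in that comparison (standard error 0.33, adjusted p = 0.387 from edgeR), with 11.0 and 12.1 FPKM in control against 7.81 and 6.56 FPKM in co-treated cells. The summed smooth muscle markers were also lower there, with 1813 and 1448 FPKM in control against 1069 and 1126 FPKM in co-treated cells. Without TAGLN the other 5 summed to 815 and 623 FPKM in control against 638 and 594 FPKM in co-treated cells, and these overlapped. The part of smooth muscle cells in the PPP1R14A values was not tested.

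Of the PP1 targeting subunits, 23 of 24 were tested. Between alcohol and control 4 were higher and 0 lower at an unadjusted p under 0.05, or 17.4% of 23, against 11.0% of all genes in either direction. PPP1R15A, the stress-induced subunit that directs PP1 to the translation factor eIF2α, had 24.2 and 25.6 FPKM in control, 30.6 and 37.5 FPKM in alcohol, and 25.3 and 22.0 FPKM in co-treated cells. Both alcohol libraries lay above the other 4. Its log2 fold change was 0.41 between alcohol and control (adjusted p = 0.267 from edgeR) and −0.53 between co-treated and alcohol (unadjusted p = 0.0016, adjusted p = 0.587 from edgeR). PPP1R3C, a glycogen-targeting subunit, was higher in co-treated cells than in control, with 132 and 108 FPKM against 199 and 179 FPKM (log2 fold change 0.61, adjusted p = 0.0877 from edgeR), and had 167 and 145 FPKM in alcohol. PPP1R3E had 3.52 and 3.61 FPKM in control against 5.82 and 4.88 FPKM in co-treated cells (log2 fold change 0.53, adjusted p = 0.254 from edgeR). PPP1R3A, the glycogen-targeting subunit of striated muscle, had 8.92 and 12.1 FPKM in alcohol and 7.97 and 8.28 FPKM in co-treated cells (log2 fold change −0.37, adjusted p = 0.888 from edgeR). PPP1R12B, the myosin-targeting subunit of heart, was the highest of the list, with 182 and 169 FPKM in control, 180 and 164 FPKM in alcohol, and 175 and 156 FPKM in co-treated cells.

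**Figure D5:**
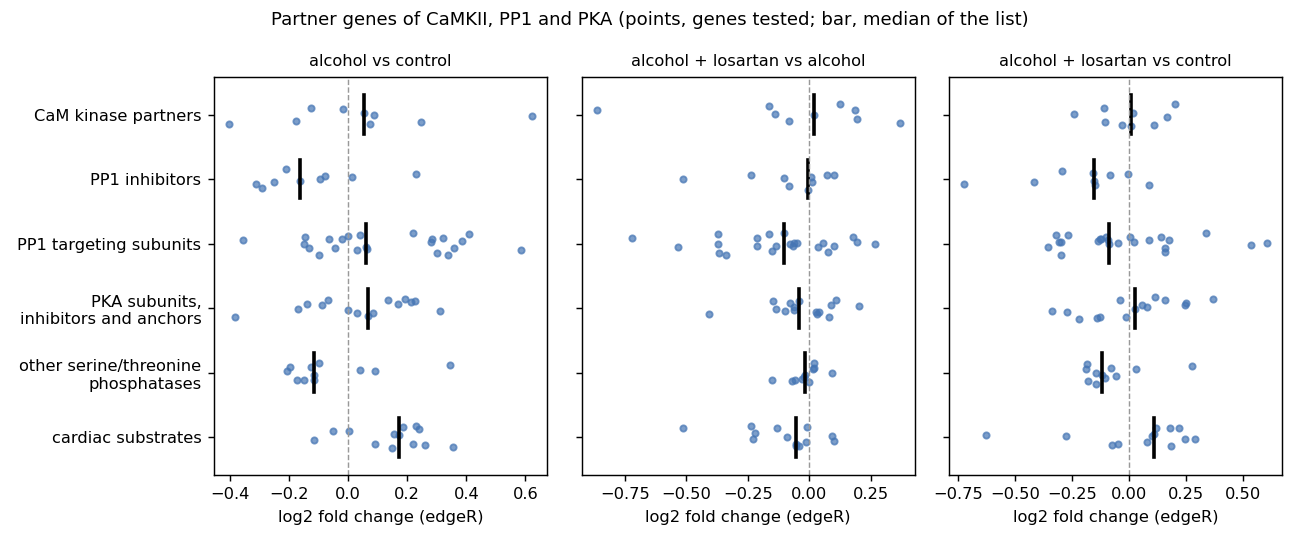
Each point is the log2 fold change (edgeR, horizontal axis) of 1 of the 80 partner genes tested, by list and comparison, and each bar is the median of the list. The medians lie between −0.16 and 0.17 in all 3 comparisons. None of the genes passed an adjusted p of 0.05, which 0.362% of all genes or fewer did.

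PKA subunits, inhibitors and anchors held 15 genes tested, of which 0 had an unadjusted p under 0.05 between alcohol and control, against 11.0% of all genes. PRKAR1A, a regulatory subunit, was the highest, with 229 and 191 FPKM in control, 210 and 188 FPKM in alcohol, and 181 and 189 FPKM in co-treated cells. PKIG, a PKA inhibitor, had 65.1 and 60.7 FPKM in control, 74.4 and 68.7 FPKM in alcohol, and 59.5 and 48.7 FPKM in co-treated cells (log2 fold change −0.41 between co-treated and alcohol, adjusted p = 0.836 from edgeR). Among 11 other serine/threonine phosphatase genes, RCAN2, a regulator of calcineurin, had 90.4 and 83.3 FPKM in control against 108 and 119 FPKM in alcohol (log2 fold change 0.34, adjusted p = 0.342 from edgeR). PPP2R1A, the scaffold of protein phosphatase 2A, lay between 109 and 125 FPKM in all 6 libraries.

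The cardiac substrates of the kinases had a median log2 fold change of 0.17 between alcohol and control over 13 genes, with 7 of them higher in both alcohol libraries than in both controls and 0 lower. Over all genes 24.7% were higher in this way. PLN, which encodes phospholamban, the brake of the calcium pump that both kinases phosphorylate and PP1 resets, had 1529 and 1322 FPKM in control, 1810 and 1698 FPKM in alcohol, and 1605 and 1889 FPKM in co-treated cells (log2 fold change 0.26 between alcohol and control, adjusted p = 0.554 from edgeR). HDAC5, a class II histone deacetylase, had 25.0 and 26.7 FPKM in control against 30.9 and 37.2 FPKM in alcohol (log2 fold change 0.36, adjusted p = 0.328 from edgeR). RYR2, the ryanodine receptor of the heart, had 61.5 and 58.1 FPKM in control against 73.4 and 77.4 FPKM in co-treated cells (log2 fold change 0.29, adjusted p = 0.350 from edgeR). HDAC4 was low, with 1.26 and 1.53 FPKM in control against 1.15 and 0.72 FPKM in co-treated cells (log2 fold change −0.63, standard error 0.29, adjusted p = 0.394 from edgeR).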

How the data were processed

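RNA-seq was available for 6 libraries in 3 groups of 2, grouped by the sample titles. Per library, the authors deposited an estimated count per gene (RSEM's expected count), FPKM values and mean transcript lengths in bases for genes above 0. A joint table repeats the FPKM and pairs gene IDs with symbols. The submitters' processing notes name HISAT2 2.0.4, Bowtie2 2.2.5, RSEM 1.2.12 and hg38, without their order. Between 33.6% and 34.2% of the expected counts of genes above 0 in a library have any decimal part other than 0, and all were rounded. Genes left out of a library's table were set to 0.

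Counts were tested with edgeR 4.0.16 (quasi-likelihood F test, two-sided, TMM, filterByExpr, 6 libraries in 1 fit, Benjamini-Hochberg at 0.05 over 14926 genes) in R 4.3.3. Standard errors were derived from F, and 95% intervals use the degrees of freedom of the fit. Alternatives used DESeq2 1.42.0, limma 3.58.1 on log2(FPKM + 1) or log2(FPKM + 0.1), other size factors and filters, the replicate number as a block, fewer libraries, and expected counts in place of FPKM. The members and lists were chosen with earlier results of these data known. Partner genes were named where they had 1 of the 2 smallest unadjusted p under 0.05 of a list and comparison or the highest FPKM of a list. One gene that this rule names is not reported here. CAMK2N1 and CAMK2N2, and single markers, were named after their values were seen. Intervals and floors cover counting error only where they are said to.

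Promoters came from RefSeq on GRCh38.p14, with 7 of 9 members matched, and exon overlaps from GENCODE 29 on GRCh38. Stretches of 50 bases were compared between GENCODE transcripts: no member shared one with another member. With genes outside the set, PPP1CA shared 18.2% of its stretches, PPP1CB 7.02%, PPP1R1A 6.26% and each other member 2.3% or less. Exons of SPDYA overlap 7.99% of the exon bases of PPP1CB on the same strand, so strand would not separate their reads there.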

Additional observations from a re-analysis of the deposited data

How the results depend on the processing

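Same-numbered libraries did not deviate together (r across 14926 genes of 0.114 between control and alcohol, −0.016 between control and co-treated and 0.041 between alcohol and co-treated), so the replicate numbers were not taken as pairs. With the replicate block the genes called were 48, 5 and 136, for alcohol against control, co-treated against alcohol and co-treated against control in this order, in place of 10, 2 and 54. The block called 0 members in each comparison. In the same order the number was 72, 5 and 123 with DESeq2, 0, 1 and 2 on log2(FPKM + 1), 2, 2 and 3 on log2(FPKM + 0.1), 2, 1 and 15 without a filter, 26, 0 and 78 with at least 10 counts in every library, and 3, 4 and 158 with only the groups compared. Where 0 genes were called, 1545 (limma) and 778 (edgeR) had an unadjusted p under 0.05. With 1 library left out it was 1 (without alcohol replicate 2) to 220 (without alcohol replicate 1), 1 to 24, and 2 to 184.

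Members called were 0 under each alternative in which every group fitted kept both libraries. At most 158 of all genes were called in these settings, so 0 of the 8 carries little information. With 1 library left out, 1 group held 1 library, and members called are not given. With 1 library left out the CAMK2D share differed by −10.95 to −6.96 points (alcohol minus control), −0.75 to 3.24 (co-treated minus alcohol) and −9.09 to −6.32 (co-treated minus control), and the PPP1CB share by −5.79 to −0.57, −0.23 to 4.99 and −2.59 to 0.99. The PPP1R1A ratio differed by 10.8 to 19.9, −8.75 to 0.31 and 10.3 to 11.97 with 1 library left out, and with expected counts in place of FPKM by 8.48 and 5.84 against control.

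Signs turned for 5 of the 8 tested members. PRKACA, alcohol against control, was 0.020 on both FPKM scales and 0.00060 without a filter, with −0.17 to 0.14 over single libraries left out. Against alcohol the co-treated value was −0.0108 without a filter and with only the groups compared, and −0.16 to 0.16 with a library left out. Against control it was 0.033 and 0.034 on the FPKM scales, and −0.060 to 0.042. With 1 library left out PPP1CB ranged from −0.15 to 0.017, −0.042 to 0.25 and −0.11 to 0.18 in the 3 comparisons, and for co-treated against alcohol CAMK2A from −0.33 to 0.053, CAMK2B from −0.30 to 0.0072 and PPP1CC from −0.11 to 0.13. The cause was not tested.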

Other observations

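The genes whose log2 CPM followed PPP1R1A most closely over the 6 libraries were KIAA1324L (r = 0.999), TPP1 (r = 0.998), UNC79 (r = 0.996), CSRP2BP (r = 0.994) and EIF2AK4 (r = 0.993). In all, 118 of 14925 genes had r above 0.95 with it, and the 6 points share the libraries and the treatment groups. These genes were picked by r with PPP1R1A, so their higher levels with alcohol follow from the choice. UNC79, a subunit of the sodium leak channel, had 0.55 and 0.56 FPKM in control, 1.48 and 2.26 FPKM in alcohol, and 1.53 and 1.65 FPKM in co-treated cells. TPP1, a lysosomal peptidase, had 14.6 and 15.0 FPKM in control, 18.6 and 21.7 FPKM in alcohol, and 19.3 FPKM in both co-treated libraries. Of the 5 genes 3 were also among the 5 nearest on log2(FPKM + 1).

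For CAMK2D the nearest were SNAP23 (r = 0.998), TJP1 (r = 0.994), CHN1 (r = 0.989), C20orf194 (r = 0.987) and DUSP14 (r = 0.986), with 65 genes above 0.95. None of these 5 was among the 5 nearest on log2(FPKM + 1), where r was 0.87 to 0.95 for them, so these neighbours depend on the scale. SNAP23, a protein of membrane fusion, had 21.3 and 18.7 FPKM in control, 18.9 and 16.8 FPKM in alcohol, and 15.5 and 16.9 FPKM in co-treated cells.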
